A study of Mus musculus with 18 samples.

Results

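The genes described here form a module of 33 members: the kinases that start the integrated stress response, the transcription factors that carry it, and the enzymes and transporters through which it supplies cells with amino acids. They were taken as a list of gene symbols with no threshold on a measured value, and all 33 were found among 53458 annotated genes. A filter on low counts kept 31 of them among 21565 genes. Chac1 and Atf3 did not pass, with 0 to 5 and 0 to 22 reads per library, and were not tested.

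RNA sequencing measured total RNA of 3 cell populations sorted from the bone marrow of C57BL/6 mice. Knockout libraries (KO here) came from animals labelled Ptbp1 KO, and their controls (WT here) from animals labelled Ptbp1 fl/fl, which carry the floxed alleles. Hematopoietic stem cells (HSC) were Lin- cells that were CD150+ and CD48- within the c-kit+ and Sca-1+ gate. The preMegE, progenitors of megakaryocytes and red cells, and the preCFU-E, committed to red cells, were both CD150+ and c-kit+, and negative for lineage markers, Sca-1, FcgRII/III and CD41. CD105 separated them, which preMegE lack and preCFU-E carry. Each of the 6 groups holds 3 replicate libraries, 18 in all. The labels do not say whether replicates are separate animals or pools, so p-values measure the spread between these libraries. The labels give neither the Cre driver nor the age or sex of the animals. PTBP1, the protein removed, binds RNA and controls splicing.

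In the integrated stress response, kinases of the translation factor eIF2α each sense a different trouble: lack of heme (Eif2ak1, also called HRI), double-stranded RNA (Eif2ak2, PKR), misfolded protein in the endoplasmic reticulum (Eif2ak3, PERK) or lack of amino acids (Eif2ak4, GCN2). Phosphorylated eIF2α slows protein synthesis as a whole but lets ATF4 be translated, and ATF4 switches on genes that make and import amino acids. Red cell precursors rely on HRI to match globin synthesis to heme. ATF4 is controlled chiefly at translation, which RNA levels do not show.

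Libraries held 15956408 to 29226287 estimated reads, of which mitochondrial ribosomal RNA took 12.7% to 33.5%. Ptbp1 itself was at 90.3 to 108 CPM (reads of a gene as a rate of all reads of its library, scaled by TMM) in KO against 196 to 221 in WT HSC, at 187 to 232 against 596 to 787 in preMegE, and at 298 to 318 against 1116 to 1345 in preCFU-E, lower in every KO library. The marker genes followed the sort: 6 HSC markers summed to a median of 1310 CPM in WT HSC, 158 in WT preMegE and 17.6 in WT preCFU-E, and 6 preCFU-E markers to 117, 1315 and 6081 CPM. The T and NK cell markers of preMegE, 204 to 276 CPM over both genotypes, were nearly all Nkg7, at a mean of 243 CPM in WT. All HSC libraries carried 6434 CPM or more of the inactive-X RNA Xist and at most 1.05 CPM of the Y-linked gene Eif2s3y, while the 12 progenitor libraries carried at most 1.10 CPM of Xist and at least 38.3 CPM of Eif2s3y. Sex and cell type therefore cannot be told apart between HSC and the progenitors.

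Many genes that ATF4 acts on carry a short DNA element near their start. It is known as the C/EBP-ATF response element, where ATF4 binds together with a C/EBP partner, and its core was searched as TGATGNAA on both strands of the RefSeq promoters of GRCm38.p6, from 250 bases before to 50 bases after each start. The core was present in 1304 of 32851 promoters (3.97%), and in 8 of the 34 promoters of the 30 members with a promoter entry. Slc1a5, Slc7a5 and Cth had no entry to search. The members were listed as genes of this response, so setting these shares side by side is no test. The 8 elements are shown because they mark which members carry this sequence close to their start, each in 30 bases read along the gene's strand, with the element in capitals.
Asns, chr6:7693205-7693234, - strand: caTGATGAAACttcccgcacgcGTTACAga
Slc1a4, chr11:20332699-20332728, - strand: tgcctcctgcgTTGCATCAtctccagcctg
Pycr1, chr11:120643833-120643862, - strand: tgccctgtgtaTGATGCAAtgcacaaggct
Slc7a11, chr3:50443652-50443681, - strand: gcTGATGCAAacctggagaatTTGCATCAt
Nupr1, chr7:126625562-126625591, - strand: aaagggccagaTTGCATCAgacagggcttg
Trib3, chr2:152344028-152344057, - strand: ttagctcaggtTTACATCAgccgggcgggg
Chac1, chr2:119351038-119351067, + strand: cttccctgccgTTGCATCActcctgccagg
Atf3, chr1:191183425-191183454, - strand: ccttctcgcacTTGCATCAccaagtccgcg
In Asns, Pycr1 and the first copy of Slc7a11 the core reads along the gene, and in the others as its reverse complement. Slc7a11 holds both orientations. Asns also carries GTTACA 11 bases after TGATGAAAC, a pairing known from the human ASNS promoter. It was the only 1 of the 32851 promoters with that pairing. The search took these exact letters and this gap from the known pairing, so this is no test. GTTACA alone, a much shorter word, occurred in 8.25%. The cyclic AMP response element TGACGTCA (1.79% of promoters) occurred in Ppp1r15a alone among the members, and overlapped no core. A match describes these letters and shows no binding.

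Levels per kilobase of transcript place the members in an order within each population. Each gene was given a single length, weighted by abundance over all libraries. In WT HSC the glutamine and alanine importer Slc38a2 stood highest at 56.1 ± 4.29 CPM per kb (SD, n = 3), followed by the serine synthesis enzyme Psat1 at 35.0 ± 9.35 and by Slc3a2, the heavy chain of several amino acid exchangers, at 27.7 ± 2.39. In WT preCFU-E the mitochondrial serine hydroxymethyltransferase Shmt2 stood highest at 118 ± 17.1 CPM per kb, with Psat1 at 114 ± 30.6 and the proline synthesis enzyme Aldh18a1 at 113 ± 14.0, which are within each other's SD. Atf4 ranked 4 of the 33 in both WT HSC and WT preCFU-E, at 25.4 ± 9.10 and 86.5 ± 16.5 CPM per kb. At the other end, Stc2 and Cbs stood lowest in WT HSC, at ranks 33 and 32. Of genes known to be strongly induced in an active response, Atf3, Chac1 and Trib3 ranked 31, 30 and 24 there. Other genes of the response stood higher, with Nupr1, Ddit3, Asns and Ppp1r15a at ranks 8, 16, 17 and 18 in WT HSC. Asns ranked 5 in WT preCFU-E. Chac1, which breaks down glutathione, had 0 reads in the 3 KO preMegE libraries, which allows up to 0.0532 CPM over that group, and at most 0.252 CPM in any library. Atf3, a stress-induced factor, reached 0.973 CPM in HSC KO 3 and at most 0.266 CPM elsewhere. Trib3, a pseudokinase that restrains ATF4, had 0 to 37 reads per library. Atf5, a factor related to ATF4, Pycr1, the last enzyme of proline synthesis, and Cth, which completes the path from homocysteine to cysteine, stayed at no more than 3.56, 5.87 and 2.58 CPM in any library, and edgeR called none of the 3 in any comparison here.

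**Figure D1:**
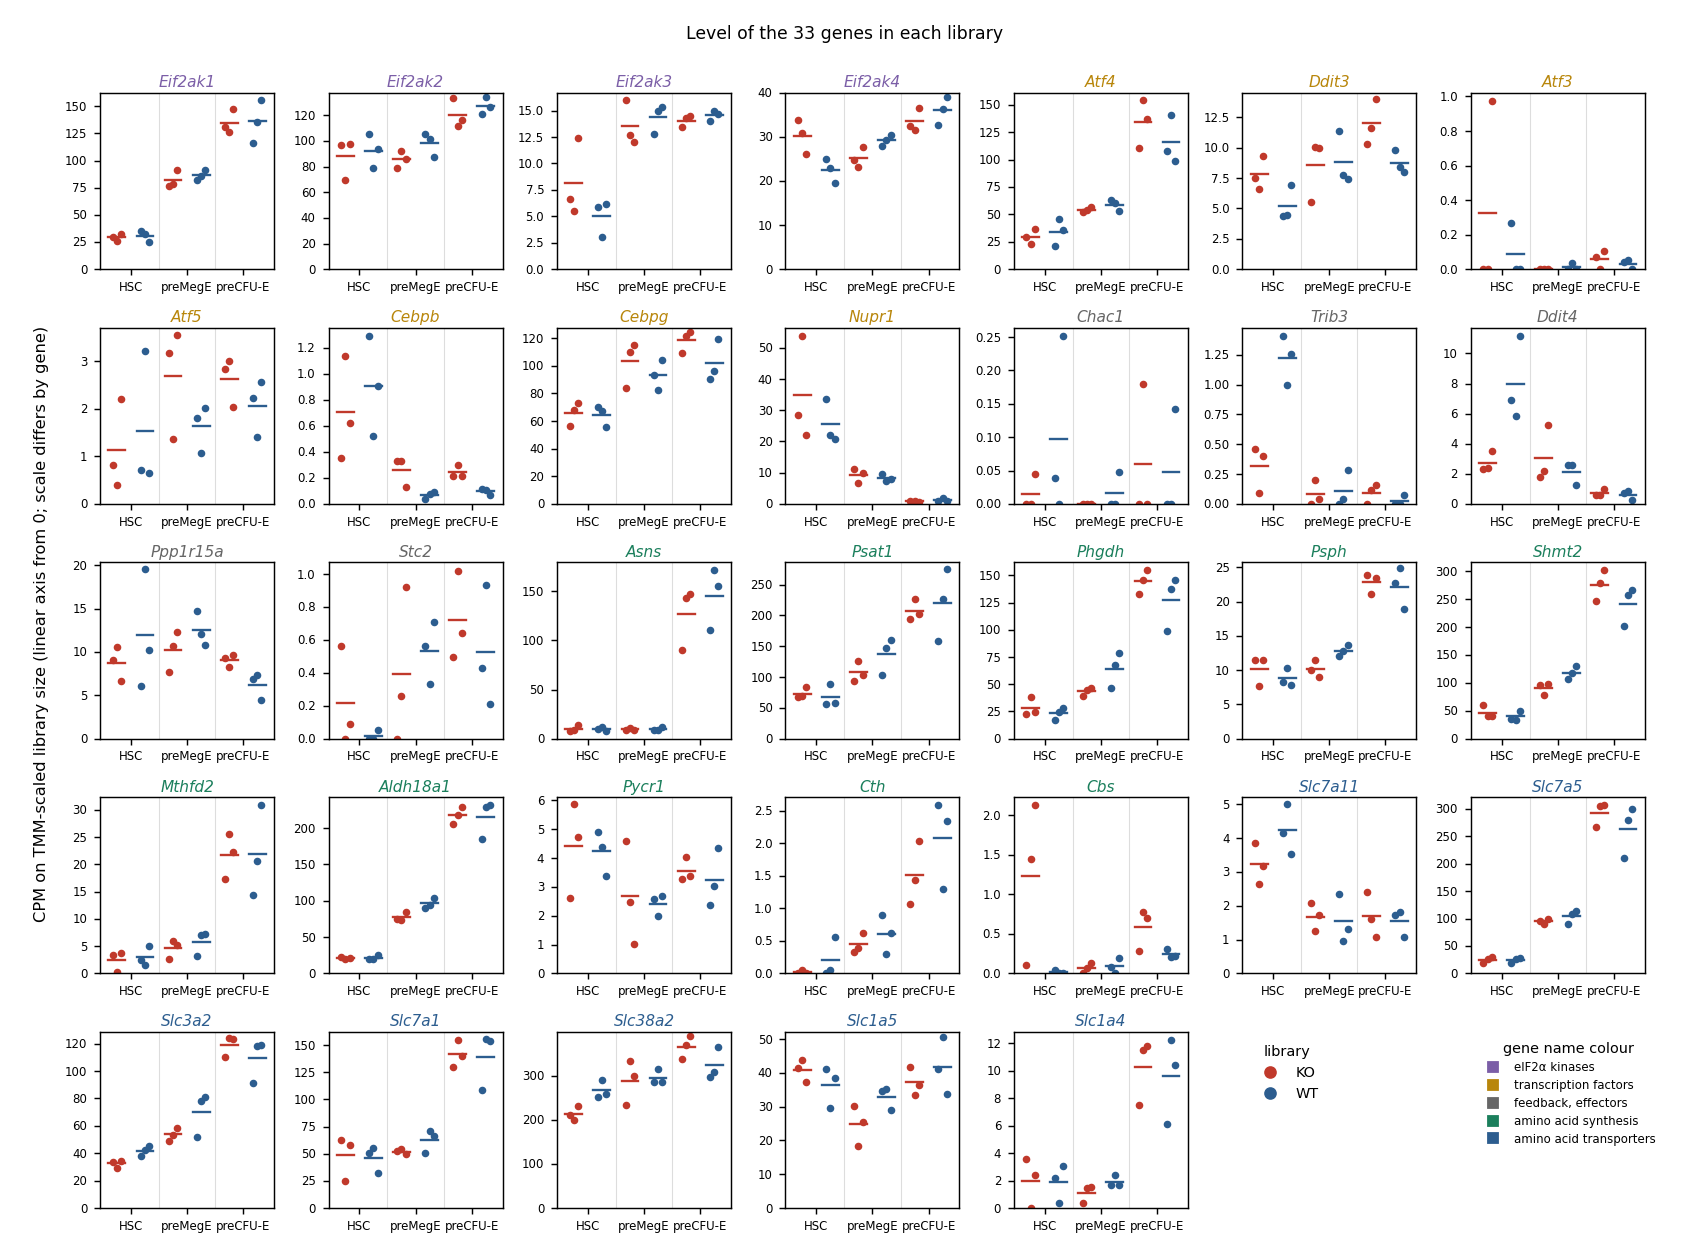
Level of each of the 33 genes in each library, in CPM on TMM-scaled library sizes (linear axis from 0, scaled for each gene), for KO (red, left) and WT (blue, right) in HSC, preMegE and preCFU-E; points are libraries and bars are means of 3. Asns stands at 13.6 CPM or less in HSC and preMegE and at 90.3 CPM or more in preCFU-E of both genotypes, and Nupr1 is lowest in preCFU-E of both, at 1.93 CPM or less.

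With a single length per gene over all libraries, the kinases kept their order of means at both ends of the series. Eif2ak1 came level with Eif2ak2. Such a length does not correct for transcripts that differ between populations. The log2 difference of Eif2ak3 between WT preMegE and WT HSC was 1.5 on gene counts and 0.25 on length-corrected counts. Its place in WT HSC is therefore uncertain. In WT HSC, Eif2ak2 stood at 24.6 ± 3.56 CPM per kb, above Eif2ak1 at 7.34 ± 1.24, Eif2ak4 at 5.41 ± 0.674 and Eif2ak3 at 1.76 ± 0.599. In WT preCFU-E, Eif2ak1 and Eif2ak2 were within their spread of each other, at 32.3 ± 4.67 and 33.8 ± 1.78 CPM per kb, with Eif2ak4 at 8.66 ± 0.776 and Eif2ak3 at 5.07 ± 0.162.

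The knockout was then compared with its controls within each population, which asks how the module differs where Ptbp1 is lost. In HSC, 1 of the 31 tested members was called, at an edgeR adjusted p below 0.05, against a background of 0.844% of all genes. That gene was Cbs (ENSMUSG00000024039, chr17:31608894-31637238 on GRCm38), cystathionine beta-synthase, which turns homocysteine toward cysteine. It had 3, 33 and 48 reads in the KO libraries, against 1, 0 and 0 in the WT libraries. Every KO library thus lay above every WT library, but KO 1 by 2 reads. The fitted log2 change was 5.91 (SE 1.35, adjusted p 0.0406), and the pooled reads, 84 in KO against 1 in WT, gave a ratio of 76.7 with an exact 95% interval of 13.4 to 3063 that covers counting error only. In KO HSC the gene was at 1.23 ± 1.03 CPM, against 0.0127 ± 0.0220 CPM in WT HSC. Its KO reads fell to 2 protein-coding transcripts, Cbs-201 at a mean of 0.484 TPM and Cbs-203 at 0.358 TPM, both at 0 in WT HSC. The call was lost without WT 1, WT 2 or WT 3 (adjusted p 0.0771, 0.114 and 0.115; log2 7.67 without WT 1) and without KO 2 or KO 3 (0.0531 and 0.0581; log2 5.25 without KO 3), and held without KO 1 (0.0123). It was also lost with limma voom (0.107) and kept with DESeq2 (0.00674).

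Libraries did not overlap between genotypes in HSC for 6 of the 31 members, 2 higher (5.8% of all genes) and 4 lower (6.31%) in KO, against 12.1% of all genes in either direction. Ddit4 (chr10:59949669-59951834), an inhibitor of the growth-promoting kinase complex mTORC1, had 2.30, 2.41 and 3.54 CPM in the KO libraries, against 6.89, 5.82 and 11.2 CPM in the WT libraries. The highest KO library lay below the lowest WT library. Its log2 change of -1.53 (SE 0.47) missed the threshold in edgeR (adjusted p 0.131) and passed in DESeq2 (0.0406) and limma voom (0.0484). Trib3 had 0.459, 0.0877 and 0.398 CPM in KO against 1.41, 0.993 and 1.26 CPM in WT (log2 -1.93, SE 1.04, edgeR adjusted p 0.431). Both genes are induced by ATF4 or CHOP in stressed cells, and edgeR called neither here.

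Of the kinases, Eif2ak4, the sensor of uncharged tRNA, had 33.8, 30.8 and 26.1 CPM in KO HSC against 25, 22.9 and 19.5 CPM in WT HSC (log2 0.43, SE 0.16, edgeR adjusted p 0.228). The lowest KO library lay just above the highest WT library. Among transporters, Slc3a2 had 33.9, 29.1 and 34.6 CPM in KO against 38.3, 42.2 and 45.5 CPM in WT (log2 -0.37, SE 0.16, adjusted p 0.316). Slc38a2 had 211, 199 and 231 CPM in KO against 251, 290 and 259 CPM in WT (log2 -0.32, SE 0.13, adjusted p 0.283). Neither transporter passed the threshold, and each lay lower in all 3 KO libraries. At an unadjusted p below 0.05 there were 8 members (13.7% of all genes): Cbs, Ddit4, Eif2ak4, Slc38a2, Slc3a2, Eif2ak3, Cth and Stc2. The median log2 change of the 31 members was 0.06, against 0.01 over all genes. The summed level of the 6 HSC markers, none of them at 0 reads, was 959 to 1194 CPM in KO HSC against 1295 to 1333 CPM in WT HSC, and its part in these differences was not tested. In sorted bulk RNA, fewer cells of a type and less RNA per cell cannot be told apart.

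In KO against WT preMegE, edgeR called 0 of the 31 members, against 0.0603% of all genes, and DESeq2 and limma voom also called 0. At an unadjusted p below 0.05 there were 6 (Phgdh, Shmt2, Aldh18a1, Slc3a2, Slc1a5 and Cebpb; 4.92% of all genes). The members lay slightly lower: 24 of 31 had a negative log2 change, with a median of -0.21 against 0.01 over all genes, and so did 9 of 10 synthesis enzymes (median -0.34) and 6 of 7 transporters (-0.27). By library, the median deviation of the members was -0.29, -0.17 and -0.07 on the log2 scale in the 3 KO libraries, against -0.07, 0.00 and 0.11 in the 3 WT libraries. KO 3 and WT 1 nearly met. Mitochondrial ribosomal RNA took 21.7%, 25.8% and 17.8% of reads in KO preMegE 1, 2 and 3. In WT preMegE 1, 2 and 3 it took 23.6%, 14.6% and 14.2%, and its part in these values was not tested. Megakaryocyte markers, 6 with none at 0 reads, summed to 59.9 to 103 CPM in KO preMegE against 120 to 145 CPM in WT preMegE, and their part in these values was not tested.

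The libraries of 6 members did not overlap between genotypes in preMegE (12.3% of all genes), 1 higher (6.02%) and 5 lower (6.24%) in KO. Shmt2, which splits serine into glycine and a folate-bound carbon, had 96.0, 78.6 and 98.8 CPM in KO against 107, 118 and 130 CPM in WT (log2 -0.37, SE 0.18). Aldh18a1 had 75.5, 73.6 and 84.0 CPM in KO against 90.6, 94.4 and 104 CPM in WT (-0.31, SE 0.14), and Psph, the last enzyme of serine synthesis, had 10.1, 11.5 and 8.95 CPM in KO against 12.1, 12.8 and 13.7 CPM in WT (-0.34, SE 0.21). In each enzyme the highest KO library lay just below the lowest WT library. Eif2ak4 had 24.7, 23.1 and 27.8 CPM in KO against 27.9, 29.4 and 30.5 CPM in WT (-0.21, SE 0.16), the reverse of its order in HSC. Slc1a4, a carrier of alanine, serine and cysteine, had 0.383, 1.44 and 1.54 CPM in KO against 1.66, 2.42 and 1.70 CPM in WT (-0.78, SE 0.86). The exception in direction was Cebpb, a C/EBP factor active in myeloid cells, with 6, 5 and 3 reads in KO against 1, 2 and 2 in WT (log2 1.82, SE 0.83). EdgeR adjusted p of these 6 ran from 0.940 to 1.

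In KO against WT preCFU-E, edgeR, DESeq2 and limma voom each called 0 of the 31 members (0.153% of all genes in edgeR), and 0 had an unadjusted p below 0.05, where 3.68% of all genes did. Several abundant members overlapped between genotypes. Asns had 90.3, 143 and 147 CPM in KO against 110, 172 and 155 CPM in WT (log2 -0.20, SE 0.22). Atf4 had 111, 154 and 137 CPM in KO against 108, 141 and 98.6 CPM in WT (0.21, SE 0.22). Eif2ak1, the heme-regulated kinase, had 130, 126 and 148 CPM in KO against 116, 136 and 156 CPM in WT (-0.01, SE 0.15). Each of the 3 had an edgeR adjusted p of 1.

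Libraries did not overlap for 3 members in preCFU-E (14.0% of all genes), 3 higher (6.62%) and 0 lower (7.41%) in KO. Ddit3, which encodes the pro-death factor CHOP, had 10.3, 11.7 and 14 CPM in KO against 9.82, 8.38 and 7.96 CPM in WT (log2 0.46, SE 0.29). A transcript annotated as retaining an intron held 42.8% to 48.6% of Ddit3 TPM in KO against 34.1% to 41.3% in WT. Whether Ddit3 differs outside that transcript was not tested. Ppp1r15a, which brings a phosphatase to eIF2α and so ends the response, had 9.29, 8.22 and 9.66 CPM in KO against 6.88, 7.28 and 4.48 CPM in WT (0.54, SE 0.34). Cebpb had 3, 5 and 4 reads in KO against 3, 2 and 1 in WT (1.23, SE 0.83; 0.213 to 0.30 CPM in KO against 0.0711 to 0.117 CPM in WT). None of the 3 passed, each with an edgeR adjusted p of 1. The 31 members had a median log2 change of 0.13, against -0.00 over all genes, and 21 were positive. Sums of 3 marker lists of other cells lay lower in KO preCFU-E: 10.6 to 11.1 CPM in KO against 14 to 17.6 CPM in WT for 6 megakaryocyte markers (Gp1bb and Ppbp at 0 in KO), 2.06 to 3.66 against 4.63 to 7.67 CPM for 9 macrophage markers (C1qa and Cd5l at 0 in KO), and 6.48 to 8.51 against 8.82 to 12.7 CPM for 6 endothelial and stromal markers (Cdh5 at 0 in KO). The megakaryocyte difference lay mostly in Vwf, at a mean of 6.07 CPM in KO against 11.9 CPM in WT. Itga2b (2.089 against 1.996 CPM), Gp9 (2.335 against 2.085 CPM) and Pf4 (0.263 against 0.225 CPM) lay slightly higher in KO. The part of the 3 lists in the values of the members was not tested.

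**Figure D2:**
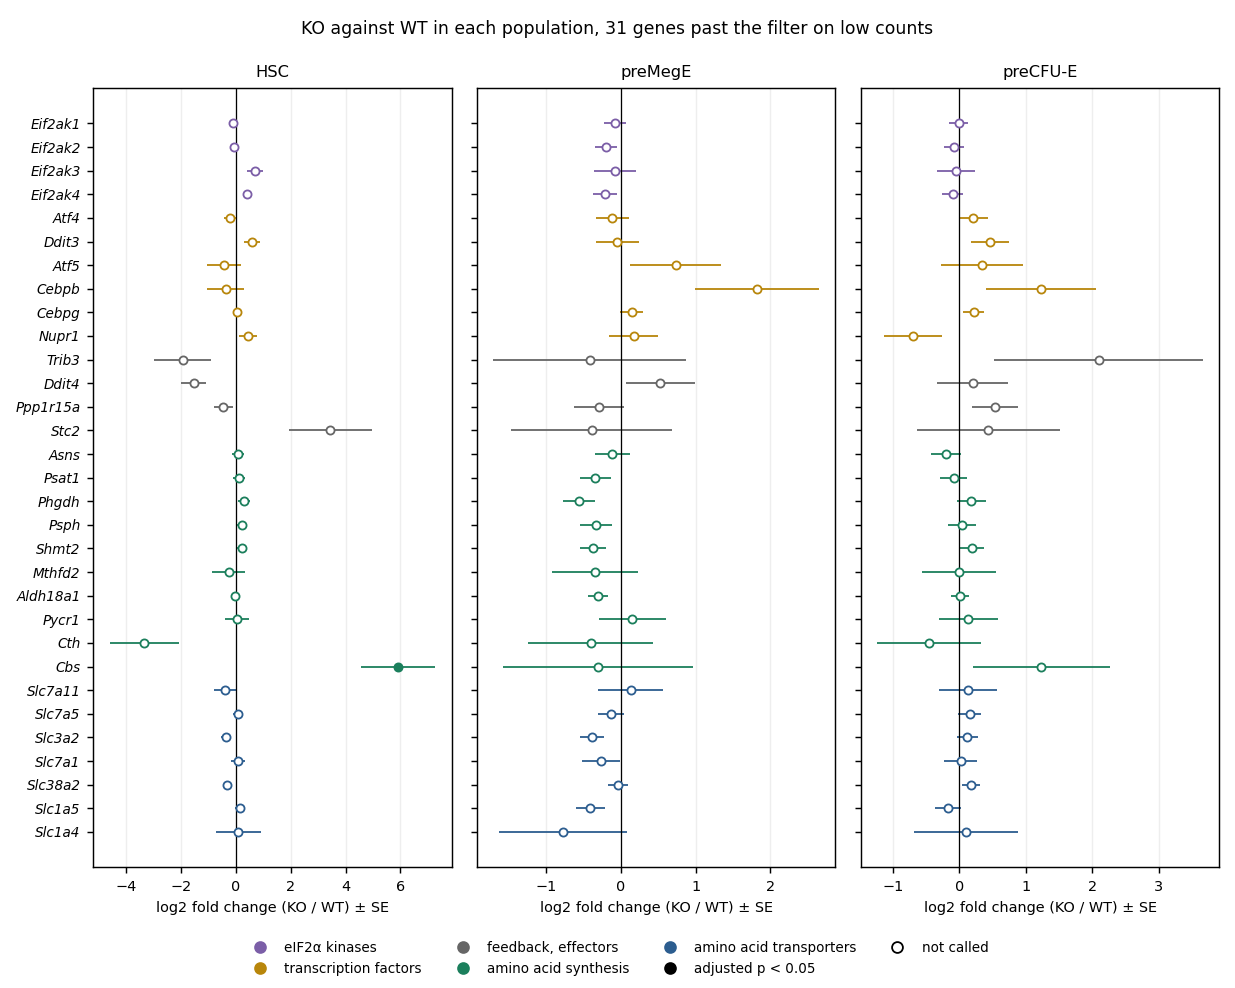
Log2 fold change of KO over WT with its SE for the 31 tested genes in HSC, preMegE and preCFU-E, coloured by role; filled points are called at an edgeR adjusted p below 0.05, and each panel has its own linear axis. Cbs in HSC, at 5.91, is the only filled point, and the synthesis enzymes of preMegE lie mostly left of 0.

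The difference of the knockout effect between populations was tested directly. Between preMegE and HSC edgeR called 0 of 31 members (0.0325% of all genes), with 6 at an unadjusted p below 0.05 (8.15%), and between preCFU-E and preMegE it called 0 (0.0% of all genes), with 3 (2.62%). DESeq2 and limma voom also called 0 in both. Cbs and Ddit4 had the lowest p of the members between preMegE and HSC, with differences of -6.22 (SE 1.89, edgeR adjusted p 0.335) and 2.06 (SE 0.66, 0.361). Next came Eif2ak4 at -0.64 (SE 0.23, edgeR adjusted p 0.427) and Phgdh, the first enzyme of serine synthesis, at -0.86 (SE 0.31, 0.449).

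The WT libraries show how the module differs along the 3 populations when Ptbp1 is present. Between WT preMegE and WT HSC edgeR called 18 of 31 members, 13 higher and 5 lower in preMegE, where it called 53.7% of all genes (25.5% higher, 28.2% lower). Aldh18a1 and the leucine carrier Slc7a5 were among the higher ones, and Nupr1, Ddit4 and Trib3 among the lower ones. The median log2 difference of the members was 0.54, against -0.43 over all genes. TMM factors differed by population, at 1.22 to 1.36 in WT HSC, 0.99 to 1.10 in WT preMegE and 0.74 to 0.88 in WT preCFU-E. Differences between populations are thus in scaled rates of reads and not in amounts per cell. With counts corrected for transcript length the median of all genes moved by 0.17, and the same correction ended the calls of Eif2ak3, Psph and Slc3a2 and brought that of Slc38a2 (0.47, adjusted p 0.0133). With protein-coding transcripts alone the calls of Atf4, Cebpg, Psph, Slc7a11, Slc3a2 and Stc2 were lost (0.0727 to 0.70). As stated above, sex cannot be told apart from cell type here.

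Of the kinases, Eif2ak1 had 82.3, 85.7 and 91.4 CPM in WT preMegE against 35.2, 32.5 and 25.1 CPM in WT HSC (log2 1.48, SE 0.15, edgeR adjusted p 1.01e-07). Eif2ak3 had 12.8, 15 and 15.3 CPM in WT preMegE against 5.90, 3.07 and 6.20 CPM in WT HSC (1.5, SE 0.29, 0.000255), but 0.25 with length-corrected counts (0.660). The other kinases had log2 differences of 0.38 (Eif2ak4) and 0.09 (Eif2ak2) and were not called. The heme-regulated kinase was 2.79-fold higher in preMegE, while PKR overlapped between the populations.

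Atf4 rose to 62.9, 60.0 and 53.1 CPM in WT preMegE, against 21.1, 45.3 and 35.8 CPM in WT HSC (log2 0.79, SE 0.22, edgeR adjusted p 0.00532). Its dimer partner Cebpg rose by 0.54 (SE 0.15, 0.00611), and Ddit3 by 0.76 (SE 0.29, 0.0345), a call lost without HSC WT 1, HSC WT 2 or preMegE WT 1 (up to 0.151). Over settings and left-out libraries together the Ddit3 call was weaker in 6 of 14 alternatives. The calls of Atf4 and Cebpg were each weaker in 1 of 14, with log2 differences as low as 0.47 and 0.07. Nupr1, a small stress-induced regulator of transcription, fell to 9.70, 7.28 and 7.82 CPM in WT preMegE, against 33.6, 22.0 and 20.9 CPM in WT HSC (-1.63, SE 0.33, 0.000427). Cebpb fell to 1, 2 and 2 reads in WT preMegE, against 34, 11 and 18 in WT HSC (-3.62, SE 0.81, 0.000998; ratio of pooled reads 0.0729, exact 95% interval 0.0229 to 0.179). Factors of the response thus moved in both directions.

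Of the feedback genes and effectors, Ddit4 and Trib3 fell, Stc2 rose and Ppp1r15a was not called (0.07, SE 0.33). Ddit4 was at 2.58, 2.61 and 1.23 CPM in WT preMegE against 6.89, 5.82 and 11.2 CPM in WT HSC (log2 -1.89, SE 0.47, edgeR adjusted p 0.00239). Trib3 had 0, 1 and 6 reads in WT preMegE against 37, 21 and 25 in WT HSC (-3.51, SE 1.15, 0.0150; ratio of pooled reads 0.0775, exact interval 0.0302 to 0.167), and lost its call without preMegE WT 1 (-2.88, 0.0719) or WT 2 (0.0855), while without WT 3 the difference was -5.58. Stc2, a secreted glycoprotein induced by stress, had 14, 9 and 15 reads in WT preMegE against 0, 0 and 1 in WT HSC (4.67, SE 1.48, 0.0124; 6.52 without HSC WT 3). Its ratio of pooled reads was 34.9 (exact interval 5.90 to 1415), and the call was lost when only protein-coding transcripts were counted (0.114).

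The serine synthesis enzymes stood higher in WT preMegE, and of the proline enzymes Aldh18a1 did. Aldh18a1 had 90.6, 94.4 and 104 CPM in WT preMegE against 19.8, 19.2 and 25.1 CPM in WT HSC (log2 2.17, SE 0.14, edgeR adjusted p 2.06e-10). Shmt2 had 107, 118 and 130 CPM in WT preMegE against 35.7, 33.1 and 50.1 CPM in WT HSC (1.57, SE 0.18, 5.45e-07). Of the enzymes that make serine from a glycolytic intermediate, Phgdh rose by 1.47 (SE 0.22), Psat1 by 1.02 (SE 0.21) and Psph by 0.54 (SE 0.21), with adjusted p of 1.81e-05, 0.000357 and 0.0359. The Psph call was lost without HSC WT 1, HSC WT 3, preMegE WT 2 or preMegE WT 3 (up to 0.0899). Over settings and left-out libraries together it was weaker in 10 of 14 alternatives, with a log2 difference as low as 0.13. Pycr1, the other proline enzyme, was not called and lay lower, with 2.58, 1.98 and 2.69 CPM in WT preMegE against 4.91, 4.40 and 3.37 CPM in WT HSC (-0.81, SE 0.44, 0.125). Every WT preMegE library lay below every WT HSC library. Asns, which makes asparagine, overlapped between the populations, with 9.01, 9.08 and 12.1 CPM in WT preMegE against 9.40, 11.6 and 7.76 CPM in WT HSC (0.07, SE 0.23, 0.820).

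Among transporters the leucine carrier Slc7a5 rose to 90.3, 109 and 114 CPM in WT preMegE, against 18.1, 25.4 and 28.1 CPM in WT HSC (log2 2.13, SE 0.18, edgeR adjusted p 8.71e-09), and its partner chain Slc3a2 rose by 0.74 (SE 0.16, 0.000794). The cystine importer Slc7a11 fell to 2.34, 0.956 and 1.32 CPM in WT preMegE, against 4.15, 5.01 and 3.53 CPM in WT HSC (-1.46, SE 0.43, 0.00758), a call lost without preMegE WT 2 (0.0572). Slc7a1, Slc38a2, Slc1a5 and Slc1a4 were not called.

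Between WT preCFU-E and WT preMegE edgeR called 16 of 31 members, 13 higher and 3 lower in preCFU-E, where it called 26.8% of all genes (15.6% higher, 11.2% lower). The median log2 difference was 0.50, against -0.18 over all genes, and all 10 synthesis enzymes and all 7 transporters had a positive difference. With length-corrected counts the count was 10. Without preMegE WT 1 or preCFU-E WT 2 it was also 10, and without preCFU-E WT 3 it was 11.

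Asns (ENSMUSG00000029752, chr6:7675169-7693254) showed the largest difference of the 31 members at this step. It had 110, 172 and 155 CPM in WT preCFU-E against 9.01, 9.08 and 12.1 CPM in WT preMegE, 14.5-fold higher (log2 3.86, SE 0.25, edgeR adjusted p 2.88e-10). That was rank 38 among the 3364 genes called higher at this step. The KO libraries stood the same way, with 90.3, 143 and 147 CPM in KO preCFU-E against 8.65, 10.3 and 8.87 CPM in KO preMegE. Its main transcript, Asns-201, was at a mean of 61.0 TPM in WT preCFU-E against 5.09 TPM in WT preMegE. With each library left out and under every alternative its log2 difference stayed between 3.62 and 4.0.

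Enzymes of serine, proline and folate metabolism were higher in WT preCFU-E. Shmt2 rose by 1.03 (SE 0.18, edgeR adjusted p 0.000129) to 202, 258 and 266 CPM in WT preCFU-E, and Aldh18a1 by 1.16 (SE 0.14, 1.37e-06) to 185, 230 and 232 CPM. Phgdh rose by 0.98 (SE 0.22, 0.00167) to 99.3, 137 and 146 CPM in WT preCFU-E, against 46.5, 67.7 and 79.0 CPM in WT preMegE. Mthfd2, a mitochondrial enzyme that oxidizes the folate-bound carbon, had 14.3, 20.7 and 30.9 CPM in WT preCFU-E against 3.27, 7.09 and 7.16 CPM in WT preMegE (1.91, SE 0.58, 0.0189). The calls of Mthfd2, Psat1 (0.69, SE 0.20, 0.0144) and Psph (0.79, SE 0.21, 0.00710) were each lost without preMegE WT 1 or preCFU-E WT 2 (up to 0.154), those of Mthfd2 and Psat1 also without preCFU-E WT 3, and that of Psph also without preCFU-E WT 1. Psat1 had 158, 226 and 275 CPM in WT preCFU-E against 103, 148 and 159 CPM in WT preMegE, which just overlap. Pycr1, Cth and Cbs were not called.

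Transporters of several substrates rose at this step. Slc7a5 had 211, 279 and 300 CPM in WT preCFU-E against 90.3, 109 and 114 CPM in WT preMegE (log2 1.33, SE 0.18, edgeR adjusted p 6.03e-06). Slc7a1, which imports arginine and lysine, had 109, 156 and 154 CPM in WT preCFU-E against 50.3, 71.0 and 66.7 CPM in WT preMegE (1.15, SE 0.25, 0.00145). Slc1a4 had 6.10, 12.2 and 10.4 CPM in WT preCFU-E against 1.66, 2.42 and 1.70 CPM in WT preMegE (2.31, SE 0.84, 0.0488), but its call was lost without any 1 of the 6 libraries (0.0679 to 0.179). Over settings and left-out libraries together it was weaker in 10 of 14 alternatives. Slc3a2 rose by 0.64 (SE 0.16, 0.00458), lost without preMegE WT 1 or preCFU-E WT 2 (up to 0.0860). Slc38a2 and Slc1a5 had differences of 0.13 and 0.35 and were not called.

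Of the upstream members, Atf4 rose again, by 0.98 (SE 0.22, edgeR adjusted p 0.00162), to 108, 141 and 98.6 CPM in WT preCFU-E against 62.9, 60.0 and 53.1 CPM in WT preMegE. Eif2ak1 rose by 0.65 (SE 0.15, 0.00177). The lower members were Nupr1, with 1.06, 1.93 and 0.782 CPM in WT preCFU-E against 9.70, 7.28 and 7.82 CPM in WT preMegE (-2.70, SE 0.38, 1.28e-05), Ddit4, with 0.704, 0.832 and 0.284 CPM against 2.58, 2.61 and 1.23 CPM (-1.78, SE 0.51, 0.0111), and Ppp1r15a, with 6.88, 7.28 and 4.48 CPM against 14.7, 12.1 and 10.8 CPM (-1.01, SE 0.34, 0.0307). The Ddit4 call was lost without preMegE WT 2 or preCFU-E WT 3 (up to 0.0681), and that of Ppp1r15a without preMegE WT 1, preMegE WT 2, preCFU-E WT 2 or preCFU-E WT 3 (up to 0.153).

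**Figure D3:**
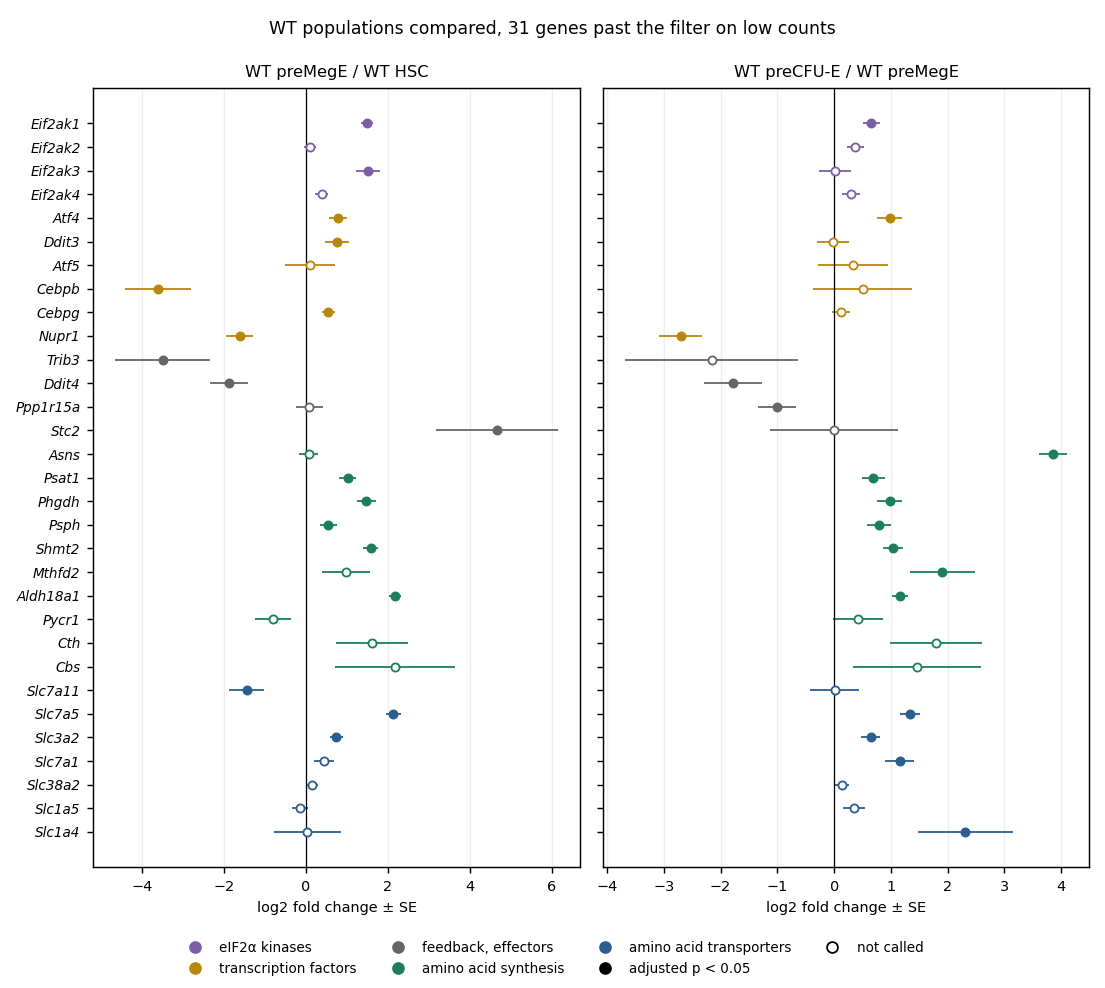
Log2 fold change with its SE of the 31 tested genes for WT preMegE over WT HSC (left) and WT preCFU-E over WT preMegE (right), coloured by role, each on its own linear axis; filled points are called at an edgeR adjusted p below 0.05. Aldh18a1 and Slc7a5 lie past 2 on the left, Asns lies at 0.07 on the left and 3.86 on the right, and Nupr1 and Ddit4 lie below 0 in both panels.

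The 8 members whose promoters hold the core shown above did not share a course. Asns and Slc1a4 were called higher in WT preCFU-E. Nupr1, Slc7a11 and Trib3 were called lower in WT preMegE than in WT HSC. Pycr1, with 0.42 (SE 0.44) between WT preCFU-E and WT preMegE, was called at neither step, and Chac1 and Atf3 were not tested. The enzymes and carriers that rose at both steps, namely Phgdh, Psat1, Psph, Shmt2, Aldh18a1 and Slc3a2, had no core in the window, and Slc7a5 was not searched.

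Lists of neighbouring pathways were read in the same fits, beside the 25.5% of all genes called higher and 28.2% called lower in WT preMegE against WT HSC, and the 15.6% and 11.2% in WT preCFU-E against WT preMegE. All 20 cytosolic tRNA synthetases, which charge tRNAs with the amino acids that the module supplies, were called higher in WT preCFU-E than in WT preMegE (median log2 1.196), and 19 of 20 in WT preMegE than in WT HSC (1.14). Gars, for glycine, had 28.6 ± 1.66 CPM in WT HSC, 92.1 ± 19.9 CPM in WT preMegE and 261 ± 47.6 CPM in WT preCFU-E. Of 16 genes of eIF2, its exchange factor eIF2B and their regulators, 14 were higher and 1, Impact, an inhibitor of GCN2, was lower in WT preMegE (log2 -0.86, SE 0.19). In WT preCFU-E 12 were higher than in WT preMegE and 0 lower, led by the eIF2B subunit Eif2b1 at 110 ± 21.0 CPM against 40.0 ± 6.76 CPM in WT preMegE.

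Of 17 tested folate genes, 10 were higher and 1 lower in WT preMegE than in WT HSC, and 11 higher and 3 lower in WT preCFU-E than in WT preMegE. Cytosolic Mthfd1 stood out at 450 ± 56.3 CPM in WT preCFU-E against 80.8 ± 23.8 CPM in WT preMegE (log2 2.48, SE 0.21). Of 16 further ATF4 targets, 6 were higher and 1 lower at the earlier step and 6 higher and 3 lower at the later one. Mthfd1l rose at both, and Vldlr, a lipoprotein receptor, fell at both. Of 16 genes of the unfolded protein response, which shares PERK with the module, 10 were higher and 1 lower in WT preMegE, and 5 higher and 2 lower in WT preCFU-E. The chaperone Hspa5 had 975 ± 357 CPM in WT preCFU-E against 426 ± 164 CPM in WT preMegE, while Ern1, the sensor kinase of another branch, fell at both steps.

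Of 16 other amino acid transporters, 3 were higher and 2 lower in WT preMegE, both below the share of all genes. In WT preCFU-E 6 were higher and 4 lower, and Slc16a10, a carrier of aromatic amino acids, was at 120 ± 12.2 CPM against 34.3 ± 2.41 CPM in WT preMegE. Slc7a8, which like Slc7a5 pairs with Slc3a2, was at 1.19 ± 0.460 CPM in WT preCFU-E against 12.8 ± 4.09 CPM in WT preMegE. Of 18 genes of mTORC1 and its amino acid sensors, 10 were higher and 3 lower in WT preMegE, and 6 higher and 1 lower in WT preCFU-E. The lower one was Sesn3, an inhibitor of mTORC1, at 12.5 ± 2.07 CPM in WT preCFU-E against 96.5 ± 17.7 CPM in WT preMegE (log2 -2.94, SE 0.17).

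Between genotypes these 7 lists gave 2 calls, both in HSC, 1 of 16 further ATF4 targets and 1 of 18 mTORC1 genes, where 0.844% of all genes were called. Vldlr was at 72.0 ± 10.6 CPM in KO against 23.5 ± 3.24 CPM in WT (log2 1.61, SE 0.23, edgeR adjusted p 0.00165), and Sesn3 at 83.0 ± 7.01 CPM in KO against 132 ± 16.0 CPM in WT (-0.67, SE 0.16, 0.0434). In KO preMegE the tRNA synthetases had a median log2 change of -0.27, against 0.01 over all genes, with 0 called and 3 of 20 at an unadjusted p below 0.05.

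Because the removed protein controls splicing, transcript usage of the members was tested as well. Among 21 members with at least 2 transcripts to compare, edgeR made 0 calls in each of the 3 populations, where in HSC, then preMegE, then preCFU-E it called 4.36%, 0.139% and 0.235% of 9364 genes. The lowest adjusted p were 0.855, 0.711 and 0.454. At an unadjusted p below 0.05 there were 0 members in HSC, Asns and Slc1a4 in preMegE, and Slc1a4 in preCFU-E. A single library could bring a call in HSC, Slc7a1 without WT 1 and Shmt2 without KO 1. Slc1a4 shows how shallow such a case is: in preCFU-E, Slc1a4-202 was at a mean of 1.84 TPM in KO against 1.10 TPM in WT, and Slc1a4-201 was at 0 TPM in all 3 KO libraries against 0, 1.70 and 1.52 TPM in the WT libraries, which overlap.

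Transcripts annotated as retaining introns took a share of the module's TPM that was highest in HSC. In HSC they held 21.6% to 22.9% of the members' TPM in KO libraries, against 21.0% to 26.5% in WT libraries. In preMegE the share was 6.67% to 9.87% in KO against 8.72% to 9.94% in WT, and in preCFU-E 5.13% to 5.93% against 4.95% to 7.18%. KO and WT overlapped in each population, and HSC overlapped with neither progenitor. Other protein-coding genes had 12.3% to 15.1% in KO HSC and 12.7% to 14.2% in WT HSC, below every value of the members there. They too were lower in the progenitors, at 5.51% to 7.56% in KO and 5.53% to 6.67% in WT preMegE, and at 4.40% to 4.80% in KO and 4.94% to 5.80% in WT preCFU-E. The shares come from Salmon's assignment of reads to transcript models and were not tested.

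**Figure D4:**
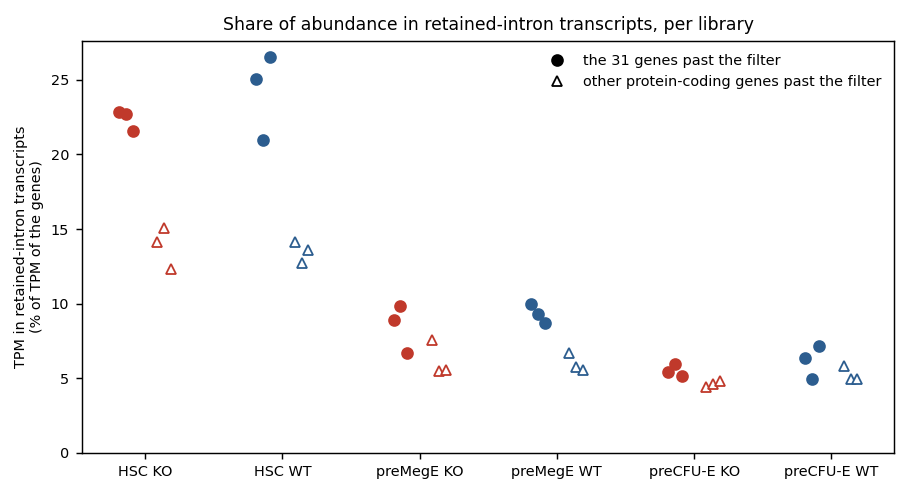
Share of TPM in transcripts annotated as retained introns, in percent (linear axis from 0), for the 31 tested members (filled circles) and for other protein-coding genes past the filter (open triangles), in each of the 18 libraries by group (KO red, WT blue). The members stand at 21.0% to 26.5% in HSC and at 9.94% or less in both progenitors.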

How the data were processed

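Each deposited file lists the transcripts of 1 library with their estimated counts and TPM values (abundance corrected for length). The submitters' processing notes name Salmon 0.12.0, and the sources used here give no options for it. Per the labels' protocols, cDNA of the sorted cells came from a NuGEN Ovation kit. No label states that strand was kept, so overlapping antisense genes are not told apart. From these deposited files, estimated counts were summed per gene with GENCODE M21 (GRCm38) and rounded to whole numbers. Of 136288 transcripts 136176 matched. Gene counts were tested in edgeR 4.0.16 (R 4.3.3; quasi-likelihood, robust, TMM factors, filterByExpr), with 6 group means over 18 libraries and 12 residual degrees of freedom. P-values were adjusted by Benjamini-Hochberg over 21565 genes and called below 0.05. CPM use TMM-scaled library sizes. CPM per kb divide by 1 transcript length per gene, weighted by abundance over all 18 libraries. Log2 changes carry the standard error (SE). For transcript usage, diffSpliceDGE of edgeR compared the transcripts with 5% or more of a gene's TPM. Replicate libraries differed by more than sampling noise. Alternatives were RLE factors, DESeq2 1.42.0, limma voom (limma 3.58.1), no filter, fewer libraries in the fit, length-scaled counts, protein-coding transcripts only, a replicate block and leaving out each library. Methods were run on simulated data, and no rate of detection is taken from those runs here. Members and lists were chosen with earlier results of these data known; Samtor of the lists had no match. Members with values in every library are those called, those whose KO and WT libraries do not overlap, up to 6 called each way in the WT comparisons, and, chosen after their values were seen, Asns, Atf4, Eif2ak1, Phgdh, Psat1, Pycr1 and Shmt2 elsewhere. Of the other lists, up to 4 called genes each way per comparison could be named.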

Additional observations from a re-analysis of the deposited data

How the results depend on the processing

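In KO against WT HSC, the count of called members was 1 as reported, 2 with DESeq2 (Cbs and Ddit4), 0 with length-scaled counts, 0 with the HSC libraries alone and 0 with a replicate block, and 0 to 1 with a library left out. Cbs had a log2 change of 4.37 with limma voom (adjusted p 0.107) and 5.30 with the block (0.154), and was not tested in the fits with length-scaled counts or HSC alone. Whether replicate numbers pair the libraries stayed unsettled. Deviations of same-numbered KO and WT libraries correlated at -0.00 to 0.00 in HSC, 0.01 to 0.14 in preMegE and -0.04 to 0.02 in preCFU-E. In preMegE those with different numbers correlated at -0.12 to 0.08. At the WT steps the block was fitted to the libraries of the 2 groups alone, so the libraries in the fit changed with it. The counts there were 15 and 18, against 18 and 16 in the main fit. Between WT preCFU-E and WT preMegE every library correlated best with its own number (0.08 to 0.24), a hint from the data only. In KO against WT preMegE and preCFU-E and in both differences between populations, 0 members were called in all settings and with any library left out. Between WT preMegE and WT HSC the count was 15 to 19 over settings and 15 to 18 with a library left out. With protein-coding transcripts only, Slc1a5 turned to 0.77 (adjusted p 0.0220) and Eif2ak2 to -0.36 (0.0350). Between WT preCFU-E and WT preMegE the count was 10 with length-scaled counts, 12 to 18 with other settings and 10 to 15 with a library left out. Transcript usage in HSC gave 0 to 1 members with a library left out. Over all genes, HSC KO calls numbered 182 as reported, 644 with DESeq2, 307 with voom, 360 without a filter, 94 with the block and 5 with HSC alone. They were 89 to 595 with a library left out. For preMegE they were 13 as reported, 61 with DESeq2, 36 alone, 27 without a filter, 7 with length-scaled counts and 4 to 9 with a library left out, and for preCFU-E 33, 75, 252, 54, 15 and 14 to 27. The difference between preMegE and HSC had 7 calls as reported, 134 with DESeq2, 41 without a filter, 2 with voom, 2 with the populations alone and 4 to 48 with a library left out, and that between preCFU-E and preMegE 0, or 10, 4 and 1 with DESeq2, no filter and the populations alone. WT preMegE against WT HSC had 11571 calls, and 7021 with protein-coding transcripts only. WT preCFU-E against WT preMegE had 5779, and 9706 with the block on the libraries of those 2 groups alone. Causes were not tested. Group size (3 libraries) and low read numbers for Cbs, Cth, Stc2, Trib3 and Cebpb limit what could be detected.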

Other observations

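Single members differed in how far retained-intron transcripts carried them; these genes were chosen after their values were seen. Slc7a5-202, which retains an intron of the leucine carrier Slc7a5, held 35.6%, 73.5% and 20.4% of the gene's TPM in KO HSC against 32.9%, 41.1% and 0% in WT HSC, and at most 1.3% in any progenitor library. For the arginine carrier Slc7a1 the share was 30.7% to 40.3% in KO HSC and 29.2% to 33.4% in WT HSC, 8.40% to 16.9% in KO and 6.63% to 13.4% in WT preMegE, and 2.37% to 5.05% in KO and 2.96% to 6.57% in WT preCFU-E. For Eif2ak1 it was 14% to 15.9% in KO HSC and 11.2% to 19.9% in WT HSC, and at most 5.34% in the progenitors. Psat1 had 23.0% to 42.5% in KO preMegE and 34.6% to 39.0% in KO preCFU-E, against 38.7% to 45.7% in WT preMegE and 33.8% to 46.9% in WT preCFU-E, nearly all of it in Psat1-204. The cystine importer Slc7a11 was carried by such transcripts in every group, at 60.4% to 98.4% in KO libraries and 61.0% to 90.7% in WT libraries. For the glutamine carrier Slc1a5 the share was 27.2% to 57.5% in KO HSC against 58.9% to 81.4% in WT HSC, 26.1% to 68.0% in KO preMegE against 24.1% to 32.6% in WT preMegE, and 6.17% to 20.4% in KO preCFU-E against 14.9% to 20.9% in WT preCFU-E. This gene is among the genes whose sign between WT preMegE and WT HSC depended on which transcripts were counted. None of these shares was tested.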
